A study of Rattus norvegicus with 23 samples.

Results

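Retinoid X receptors (RXR) are nuclear receptors that bind DNA as dimers with a partner receptor. With the liver X receptors (LXR), which sense oxysterols, they form dimers that switch on the genes of cholesterol export, among them those of the transporters ABCA1 and ABCG1, and the genes of fatty acid synthesis. With the peroxisome proliferator-activated receptors (PPAR), which sense fatty acids and their derivatives, they form dimers that drive fatty acid oxidation, storage and transport. In blood, these receptors and both exporters are best known from monocytes and macrophages.

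The 9 genes described here are the receptors Rxra and Rxrb (RXR alpha and beta), Nr1h2 and Nr1h3 (LXR beta and alpha), Ppara, Ppard and Pparg, and the exporters Abca1 and Abcg1. They were chosen by name, with earlier results of these data known: every probe of the array design whose gene name is 1 of these 9 was taken. Each gene had 1 probe, so the set is 9 of 41012 probes. After the filter on dim probes, 7 of the 9 genes were among the 20768 features tested. Ppara and Pparg were not.

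The samples were peripheral blood mononuclear cells (PBMC), the lymphocytes and monocytes of blood, from Wistar rat pups aged 21 days. Their dams received 20% fewer calories (CR, 5 dams) or ate freely (control, 11 dams) during lactation. The arrays were 5 of CR males, 6 of control males, 6 of CR females and 6 of control females, 1 for each pup. On each of the 23 arrays the Cy5 channel held 1 pup's RNA and the Cy3 channel a pool of all samples, with no dye swap. A value below is therefore the log2 ratio of a pup to the pool, or a difference of such ratios. The comparisons ask whether the diet of the dam goes with a difference in the blood cells of the pup, in each sex, and whether the sexes differ.

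Between 20603 and 24076 probes per array were well above background in Cy5. CR female replicate 5 and CR male replicate 1 stood apart, with median correlations to the other arrays of 0.07 and 0.15, where the median over arrays was 0.28. Results that rest on them are given without them too. Of the marker genes with a probe, 12 of 12 for B cells, 14 of 16 for T cells and 11 of 15 for monocytes were well above background on all 23 arrays, including Cd3e, Cd14 and Cd68. The red cell markers were also well above background on all arrays, in 11 of 11 genes, and so were 7 of 13 neutrophil markers. Pups were not tied to litters by the labels, so they were treated as independent. The 6 CR females and 5 CR males came from 5 CR dams, so some CR pups must share a dam. The p-values may therefore be too small, also for the mean of the sexes. In PBMC, fewer cells of a type and less RNA per cell cannot be told apart.

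Promoters are shown first for 4 of the genes. Abca1 is shown because LXR and RXR act on its promoter, Rxra and Rxrb because they had the lowest p-values among the receptors, and Nr1h2 as the LXR gene with the repeated element below. Each line is the 250 bases before the gene start, 5′ to 3′ on the gene's strand, from RefSeq (GRCr8). Capitals in Abca1 mark a match to GGTNANNNNNGGTNA, a form of the DR4 element to which LXR and RXR bind. Capitals in Rxra and Rxrb mark GGGCGG, the GC box bound by Sp1, and capitals in Nr1h2 mark CTTCCGG, the core of elements bound by ETS factors. Both strands were searched for each.

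Abca1: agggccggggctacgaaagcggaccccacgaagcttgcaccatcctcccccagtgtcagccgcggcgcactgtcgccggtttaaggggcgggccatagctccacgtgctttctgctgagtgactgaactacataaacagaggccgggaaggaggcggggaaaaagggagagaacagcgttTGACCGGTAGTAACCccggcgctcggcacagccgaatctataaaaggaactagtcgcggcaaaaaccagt
Rxrb: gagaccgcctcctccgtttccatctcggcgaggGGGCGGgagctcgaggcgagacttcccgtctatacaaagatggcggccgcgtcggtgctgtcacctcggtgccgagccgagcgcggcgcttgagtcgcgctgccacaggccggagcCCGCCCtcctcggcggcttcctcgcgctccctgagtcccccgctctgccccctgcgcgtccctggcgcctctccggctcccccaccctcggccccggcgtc
Rxra: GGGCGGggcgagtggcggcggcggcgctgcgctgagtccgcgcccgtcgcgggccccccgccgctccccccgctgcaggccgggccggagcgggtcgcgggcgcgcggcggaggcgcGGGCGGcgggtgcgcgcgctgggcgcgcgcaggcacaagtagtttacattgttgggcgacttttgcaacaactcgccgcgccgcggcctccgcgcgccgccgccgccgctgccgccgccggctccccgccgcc
Nr1h2: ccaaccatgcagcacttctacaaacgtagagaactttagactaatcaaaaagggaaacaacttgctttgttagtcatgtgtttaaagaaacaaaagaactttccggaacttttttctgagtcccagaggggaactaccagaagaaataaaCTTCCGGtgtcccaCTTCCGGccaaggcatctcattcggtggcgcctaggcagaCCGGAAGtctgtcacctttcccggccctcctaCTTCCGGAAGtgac

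The Abca1 window lies at chr5:72596474-72596723 (minus strand), the Rxrb window at chr20:4824660-4824909 (minus strand), the Rxra window at chr3:31387642-31387891 (plus strand) and the Nr1h2 window at chr1:104183864-104184113 (minus strand). The DR4 form occurred once in Abca1, from 70 to 56 bases before the gene start and on the opposite strand, and in 0.592% of 33469 rat promoters. The GC box occurred 2 times each in Rxra, Rxrb and Ppara, 3 times in 1 of the 2 Pparg windows and once in Abca1, where it is left in lower case, and in 30.5% of promoters. CTTCCGG occurred 5 times in Nr1h2, with 2 of the 5 matches overlapping in CTTCCGGAAG next to the gene start, and in 7.27% of promoters. The form GGTNANNGGTNA of the DR1 element, to which PPAR and RXR bind, had no match in these letters in the windows of Nr1h2, Nr1h3, Rxra, Rxrb, Ppara, Pparg and Abca1, and 0.684% of promoters hold it. A match is a description of the letters only. Ppard and Abcg1 were not matched to a promoter.

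The 9 probes are 60-base stretches placed on the rat build rn4 by the array design, each from a transcript of the gene it names. Those of the RXR genes lie at chr3:6689685-6689744 (Rxra) and chr20:4955532-4955591 (Rxrb). Those of the LXR genes lie at chr1:95027486-95027545 (Nr1h2) and chr3:75542215-75542274 (Nr1h3). Those of the PPAR genes lie at chr7:123807016-123807075 (Ppara), chr20:6541732-6541791 (Ppard) and chr4:151600180-151600239 (Pparg). Those of the exporters lie at chr5:70493613-70493672 (Abca1) and chr20:9459359-9459418 (Abcg1). Which exon or untranslated region each falls in was not analysed here.

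The signal of the genes differed in how far it stood above background. Rxrb, Nr1h2, Nr1h3 and Abcg1 were well above background on 23 of 23 arrays, with median Cy5 intensities of 229 for Rxrb, 2110 for Nr1h2, 193 for Nr1h3 and 3700 for Abcg1, where the local background was near 30. Intensities of different probes are not comparable as RNA levels. Rxra, at a median of 76.0, was well above background on 22 of 23 arrays, the exception being CR male replicate 1. Ppard passed on 12 arrays: 4 of 5 CR males, 1 of 6 control males, 4 of 6 CR females and 3 of 6 control females. Abca1, whose product loads cholesterol onto lipid-poor apolipoprotein A-I, passed on 11 arrays: 1 of 5 CR males, 3 of 6 control males, 3 of 6 CR females and 4 of 6 control females.

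Ppara, the receptor that drives hepatic fatty acid oxidation in fasting, was not well above background on any of the 23 arrays, although it was printed on 10 spots of each. Its median Cy5 intensity was 43.9, and its log2 ratio stayed between -0.02 and 0.07. Pparg, the adipocyte receptor that is also present in macrophages, was well above background on 5 of 23 arrays and also had 10 spots. Its log2 ratio ran from -0.02 to 0.17. The SD of the array means was 0.02 for Ppara and 0.05 for Pparg, and the median SD between single spots of 1 array was 0.09 for each. Neither receptor was tested, and no difference between groups is given for them.

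**Figure D1:**
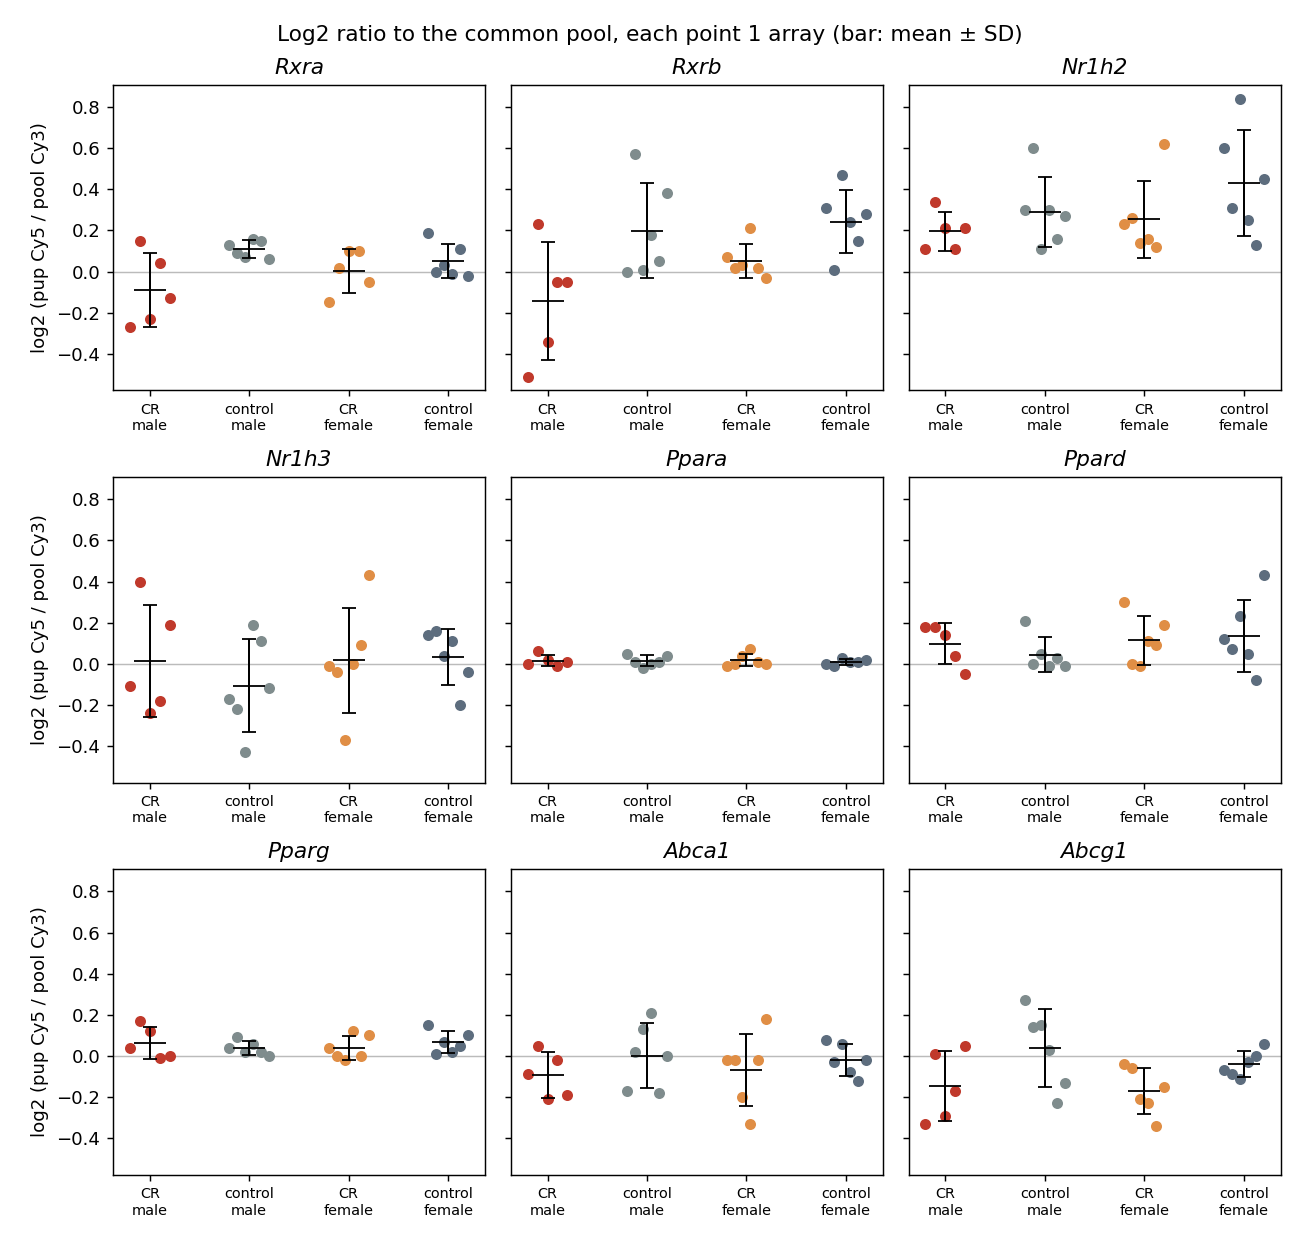
Log2 ratio of pup to pool for each of the 9 genes, with 1 point per array, groups along the x axis and the mean with its SD as the bar. Rxrb in CR males reaches down to -0.51, the points of Ppara lie between -0.02 and 0.07, and the 4 groups overlap in every panel.

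Rxrb is the RXR gene expressed across most tissues. It was lower in CR than in control pups of both sexes, but the test over all features did not call it. In CR males the log2 ratios were -0.51, 0.23, -0.34, -0.05 and -0.05, against a lowest of 0, a median of 0.11 and a highest of 0.57 in control males. Of the 5 CR males, 4 lay below every control male, with replicates 1 and 3 the lowest, and replicate 2 lay above the control mean. In CR females the ratios had a lowest of -0.03, a median of 0.03 and a highest of 0.21, against 0.01, 0.26 and 0.47 in control females. All 6 CR females lay below the mean of the control females, yet the groups overlapped.

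For Rxrb, CR minus control came to -0.34 ± 0.11 (SE; unadjusted p = 0.00727) in males and -0.19 ± 0.11 (unadjusted p = 0.0959) in females. The mean of the sexes was -0.26 ± 0.08, a difference of -16.5% with a 95% interval of -25.8% to -6.7% (unadjusted p = 0.00294). The sexes separately had limma's adjusted p of 0.637 (males) and 0.995 (females) over 20768 features, and their mean had 0.589. By unadjusted p, Rxrb ranked 90 of 20768 features for the mean of the sexes. Within the 4 slides that held CR and control males, the difference was below 0 in 3 and ran from -0.52 to 0.05. Within the 6 slides with both groups of females it was below 0 in 5, and it ran from -0.44 to 0.

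The size of the Rxrb difference moved with the processing. The Cy5 channel alone gave -0.39 in males but -0.08 in females (limma's unadjusted p = 0.584). Its mean of the sexes was -0.24 (unadjusted p = 0.045). Scaling between arrays gave -0.28 in males and -0.14 in females. The scanner software's own ratio, which subtracts background with no offset, gave -0.61 in males and -0.46 averaged over the sexes, while centring on the median in place of loess gave -0.64 in males, where the median of all features was itself -0.19. Without the 2 arrays that stood apart the values were -0.25 in males and -0.22 for the mean of the sexes. That setting drops CR male replicate 1 but keeps replicate 3, the next lowest. Replicates 1 and 3 of the CR males were the most alike of all arrays (correlation 0.665).

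Rxra, the RXR gene prominent in liver and myeloid cells, was lower in CR males than in control males, with a difference near 0 in females. The log2 ratios of CR males were -0.27, 0.15, -0.23, 0.04 and -0.13, against 0.06, 0.11 and 0.16 (lowest, median and highest) in control males. Of the 5 CR males, 4 lay below every control male, again with replicates 1 and 3 the lowest, and replicate 2 lay within the control range. CR females ran from -0.15 to 0.10 with a median of 0.02, against -0.02 to 0.19 with a median of 0.01 in control females, and 1 CR female array lacked a value because its spot was marked as an outlier.

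CR minus control for Rxra was -0.20 ± 0.07 in males (unadjusted p = 0.00848, limma's adjusted p = 0.637) and -0.04 ± 0.07 in females (adjusted p = 0.995). The mean of the sexes was -0.12 ± 0.05 (unadjusted p = 0.0199, adjusted p = 0.596). Within slides it was below 0 in 4 of 4 for males and in 2 of 5 for females. Its value moved with the processing, and the cause was not tested. The scanner software's ratio gave -1.05 in males, whereas the Cy5 channel alone gave -0.07 (unadjusted p = 0.366). Without the 2 arrays that stood apart the males differed by -0.15.

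Nr1h2, the LXR gene found in most cell types, had ratios of 0.11, 0.34, 0.21, 0.11 and 0.21 in CR males, against 0.11, 0.28 and 0.60 (lowest, median and highest) in control males. CR females had 0.12, 0.20 and 0.62, against 0.13, 0.38 and 0.84 in control females. In females 5 of 6 CR arrays lay below the control mean, and replicate 6 stood well above the other CR females. CR minus control was -0.09 ± 0.11 in males and -0.18 ± 0.11 in females (unadjusted p = 0.418 and 0.111). With 1 array left out at a time, the female difference ran from -0.25 without CR female replicate 6 (unadjusted p = 0.0223, limma's adjusted p = 0.917) to -0.09 without control female replicate 3 (unadjusted p = 0.346). Under median centring Nr1h2 was at -0.55 in males and -0.38 averaged over the sexes (unadjusted p = 0.00872 and 0.00946), with the same shift of all features in males as above.

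Nr1h3, the LXR gene of macrophages and liver, varied more between pups than with diet. CR males had -0.11, 0.40, -0.24, -0.18 and 0.19, against a control male range of -0.43 to 0.19. CR females ranged from -0.37 to 0.43, against -0.20 to 0.16 in control females. The difference was 0.12 ± 0.13 in males and -0.02 ± 0.12 in females (unadjusted p = 0.367 and 0.883). The 95% interval for the mean of the sexes ran from -0.14 to 0.24 on the log2 scale, or from -9.25% to 18.1%.

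Ppard, the PPAR of most tissues, gave 0.18, 0.18, 0.14, 0.04 and -0.05 in CR males, against -0.01, 0.01 and 0.21 (lowest, median and highest) in control males. CR females gave -0.01, 0.10 and 0.30, against -0.08, 0.10 and 0.43 in control females. The groups overlapped, and the differences of 0.05 ± 0.08 in males and -0.02 ± 0.07 in females were within their errors. The Cy5 channel alone gave 0.11 in females (limma's unadjusted p = 0.0455, adjusted p = 0.963). With 12 of 23 arrays well above background, the Ppard values lie close to the limit of measurement.

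Of the exporters, Abcg1, which passes cholesterol to high-density lipoprotein particles, was lower in CR pups of both sexes. CR males had ratios of -0.33, 0.01, -0.29, -0.17 and 0.05, against -0.23, 0.08 and 0.27 (lowest, median and highest) in control males. CR females had -0.34, -0.18 and -0.04, against -0.11, -0.05 and 0.06 in control females. All 6 CR females and 4 of 5 CR males lay below the mean of their controls, and both pairs of groups overlapped. The lowest CR males were replicates 1 and 3, as for Rxrb and Rxra.

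CR minus control for Abcg1 was -0.18 ± 0.08 in males (unadjusted p = 0.0416, limma's adjusted p = 0.688), -0.13 ± 0.08 in females (unadjusted p = 0.112, adjusted p = 0.995). Averaged over the sexes it was -0.16 ± 0.06 (unadjusted p = 0.0128, adjusted p = 0.589). This average is a difference of -10.5%, with a 95% interval of -17.6% to -2.73%. With slides as a block the male value was -0.13 (unadjusted p = 0.156), and within slides it was below 0 in 3 of 4 for males and 4 of 6 for females. Without the 2 arrays that stood apart the mean of the sexes was -0.12 (unadjusted p = 0.0573). Under median centring Abcg1 was at -0.68 in males, where the median of all features was itself -0.19, and at -0.41 for the mean of the sexes.

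Abca1 had ratios of -0.09, 0.05, -0.21, -0.02 and -0.19 in CR males, against -0.18, 0.01 and 0.21 (lowest, median and highest) in control males. CR females had -0.33, -0.02 and 0.18, against -0.12, -0.02 and 0.08 in control females. The groups overlapped throughout. CR minus control was -0.09 ± 0.08 in males and -0.05 ± 0.08 in females (unadjusted p = 0.261 and 0.547), with most arrays not well above background.

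**Figure D2:**
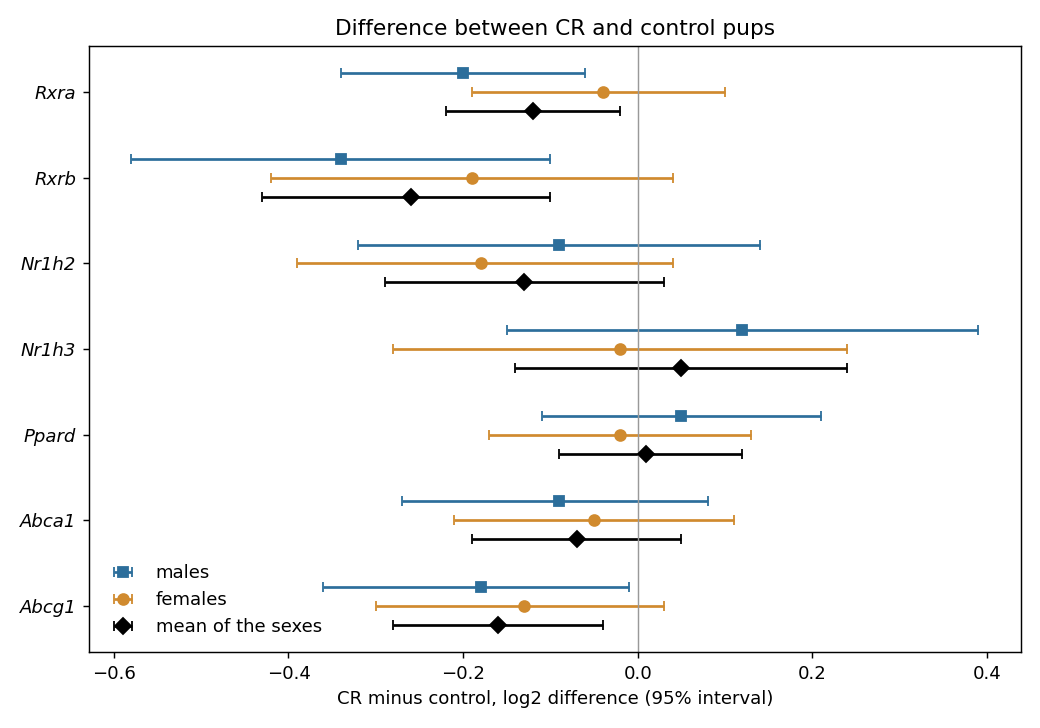
CR minus control as a log2 difference for the 7 tested genes, with squares for males, circles for females, diamonds for the mean of the sexes and bars for 95% intervals. The intervals of Rxra, Rxrb and Abcg1 for the mean of the sexes lie below 0, and in females the interval of each of the 7 genes spans 0.

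The counts are set beside those of all features as a description only, since the genes were chosen with earlier results of these data known. No member passed an adjusted p of 0.05 in any comparison, and the share of all features called was also 0% for the diet contrast of males, that of females and their mean. An unadjusted p under 0.05 with a lower value in CR was reached by 3 of 7 members in males (Rxra, Rxrb and Abcg1), where 4.06% of all features did so. It was reached by 0 of 7 in females, where 2.65% did. Averaged over the sexes, it was reached by the same 3 genes, where 4.86% did. In each of these 3 genes the lowest CR males were replicates 1 and 3, so the 3 are not independent. None of the 7 was higher at that level, where the background was 3.12% for males, 1.99% for females and 2.48% for their mean. The estimate was below 0 for 5 of 7 members in males, as for 52.7% of features, for 7 of 7 in females, as for 48.4% of features, and for 5 of 7 averaged over the sexes, as for 49.1%. Every member's groups overlapped, as did those of all but 0.25% of features for lower and 0.149% for higher in males, and all but 0.154% for lower and 0.0433% for higher in females.

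The diet differences of males and females were compared directly. The male minus female difference ran from -0.15 (Rxra, ± 0.10; Rxrb, ± 0.16) to 0.14 (Nr1h3, ± 0.18), with limma's adjusted p between 0.936 and 0.976, where 0% of all features were called. At an unadjusted p under 0.05 there were 0 of 7 members, where the background was 4.67%. The larger male values of Rxra and Rxrb were thus not shown to differ from those of females. Males minus females over both diets ran from -0.12 ± 0.08 (Rxrb) to 0.05 ± 0.06 (Abcg1). None of the 7 was called in that comparison, where 0.0578% of features were, and none reached an unadjusted p under 0.05, where 7.39% did.

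The other genes of these pathways were taken from 6 lists chosen by name, with earlier results of these data known. The shares of all features beside their counts are therefore a description and not a test. Their counts below are for CR minus control as the mean of the sexes and use an unadjusted p under 0.05, since no gene passed the adjusted threshold. The background was 4.86% of features lower and 2.48% higher, and the median of all features was 0.

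Of the target genes of LXR, 14 of 19 were measured, 5 of the 14 were lower at that level and 0 were higher. The estimate was below 0 for 13 of the 14, counting Abca7, whose value rounds to 0, where 49.1% of all features were below 0, and the median was -0.17. Those 5 were Fasn, the fatty acid synthase (-0.17 ± 0.05, unadjusted p = 0.00256, adjusted p = 0.589), Srebf1, which encodes the regulator SREBP-1 (-0.18 ± 0.06), the stearoyl-CoA desaturases Scd (-0.19 ± 0.07) and Scd2 (-0.25 ± 0.09), and Lpcat3, which puts polyunsaturated acyl chains into phospholipids (-0.17 ± 0.07). Acaca, the acetyl-CoA carboxylase that feeds fatty acid synthesis, did not reach the level (-0.11 ± 0.07, unadjusted p = 0.16). Mylip, which marks the LDL receptor for degradation, was at 0.03 ± 0.06, and the cholesterol and phospholipid transporter Abca7 at 0.00 ± 0.06.

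By sex, LXR target genes at an unadjusted p under 0.05 numbered 1 of 14 lower in males (Scd2, -0.33 ± 0.12), where 4.06% of all features were lower. In females 3 of 14 were lower (Fasn, -0.27 ± 0.07; Srebf1, -0.21 ± 0.09; Lpcat3, -0.23 ± 0.10), where 2.65% of all features were. The list's median was -0.09 in males and -0.19 in females. Fasn averaged -0.12 ± 0.15 in CR females and 0.14 ± 0.13 in control females (SD, n = 6 each). Srebf1 averaged -0.20 ± 0.16 in CR females and 0.01 ± 0.15 in control females. Without the 2 arrays that stood apart the count for the mean of the sexes was 3, with 0 in males and 1 in females.

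Of the target genes of PPAR, 18 of 24 were measured. The mean of the sexes was lower in 1 and higher in 2 of the 18, with a median of 0.01. Cpt1a, which brings fatty acids into mitochondria for oxidation, was higher (0.24 ± 0.08, unadjusted p = 0.009, adjusted p = 0.589), with 0.37 ± 0.12 in males and 0.10 ± 0.11 in females. Decr1, which handles unsaturated acyl-CoA in oxidation, was at 0.17 ± 0.08, and Acadl, the long-chain acyl-CoA dehydrogenase, at -0.12 ± 0.05. Hadha, of the trifunctional protein, was at -0.09 ± 0.05 (unadjusted p = 0.0874). The list thus held members in both directions.

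Of the other partners of RXR and related lipid-sensing receptors, 12 of 19 were measured. The mean of the sexes was lower in 1, Thra, the thyroid hormone receptor alpha (-0.13 ± 0.06, unadjusted p = 0.0464), and higher in 0. Rxrg, the RXR gene best known from muscle and brain, was at 0.20 ± 0.08 in males (unadjusted p = 0.0156) and 0.00 ± 0.07 in females, so that its male estimate had the opposite sign to those of Rxra and Rxrb. Esrra was at -0.09 ± 0.09 and the clock repressor Nr1d2 at 0.06 ± 0.06. The list's median was -0.02. Of 20 coregulators, 19 were measured and 0 reached the level in either direction for the mean of the sexes, with a median of 0. Those with the smallest p were the coactivators Ncoa6 (-0.08 ± 0.05) and Ncoa1 (-0.05 ± 0.04) on the lower side and Tbl1xr1 (0.08 ± 0.06), of a corepressor complex, and the corepressor gene Nrip1 (0.11 ± 0.08) on the higher.

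Of the genes of sterol efflux, storage and oxysterol metabolism, 13 of 21 were measured, with 1 lower and 0 higher and a median of -0.03. Apoa1, which encodes the acceptor of cholesterol exported by ABCA1, was at -0.50 ± 0.19 (unadjusted p = 0.016). Its spread was wider in the controls, with an SD of 0.73 in control males against 0.17 in CR males. In females the SD was 0.54 in controls against 0.29 in CR. Lipa, the lysosomal acid lipase that frees cholesterol, was at -0.23 ± 0.11 (unadjusted p = 0.0518), with -0.05 ± 0.16 in males and -0.42 ± 0.15 in females. Osbpl1a (0.14 ± 0.13) and Stard4 (0.03 ± 0.04), both carriers of sterols, had the smallest p on the higher side. Of the carriers of lipid and retinoid ligands, 6 of 13 were measured and 0 reached the level. The fatty acid carrier Fabp5 was at -0.15 ± 0.13, and the retinoic acid carrier Crabp2 was at 0.03 ± 0.08.

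**Figure D3:**
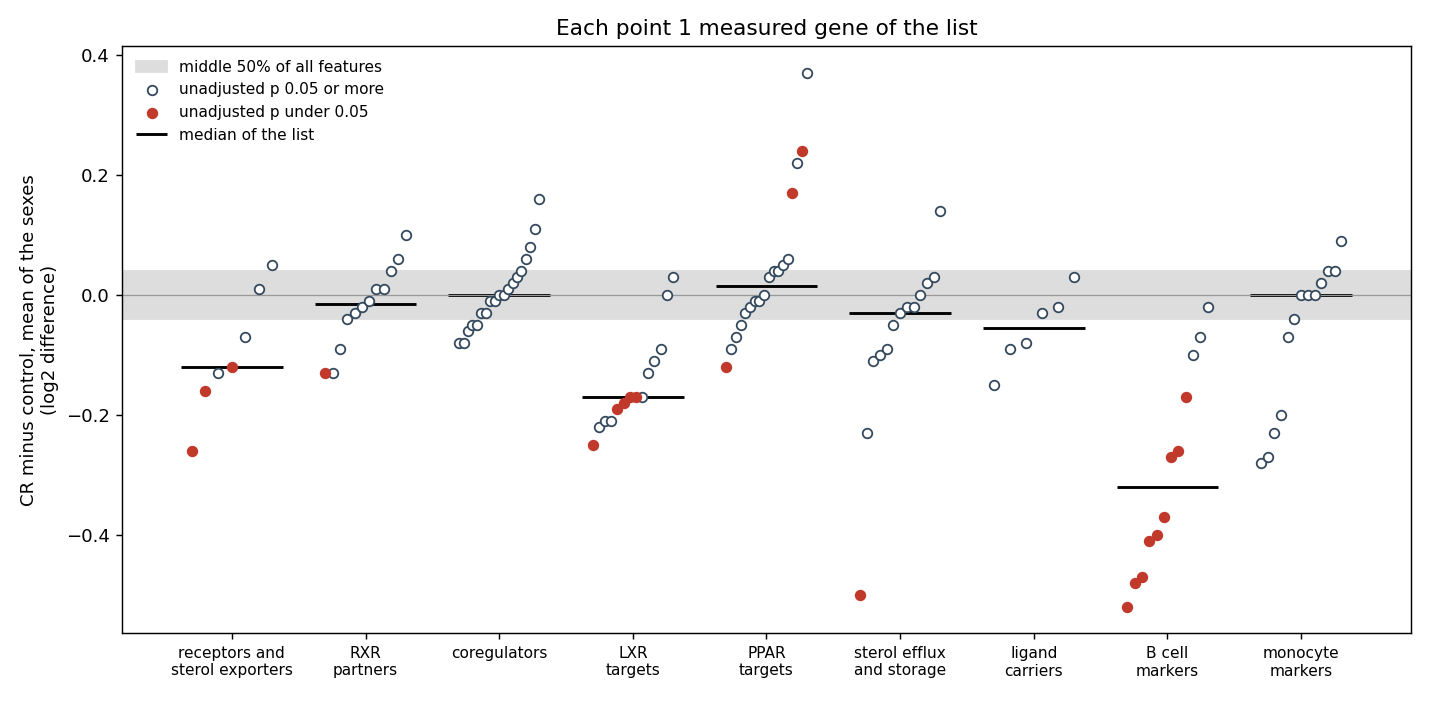
CR minus control as a log2 difference for the mean of the sexes, 1 point per measured gene, by list along the x axis; filled points have an unadjusted p under 0.05, bars are medians and the grey band holds the middle 50% of all features. The LXR targets lie mostly below the band with a median of -0.17, the PPAR targets and coregulators spread to both sides of it, and the B cell markers have a median of -0.32.

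Levels of cell type markers differed between the same arrays. Of the 12 measured B cell markers, 9 were lower in CR pups at an unadjusted p under 0.05 for the mean of the sexes, where 4.86% of all features were. The median was -0.32, and 0 passed the adjusted threshold. Of these markers, 12 of 12 were below 0 in males, and 9 were below and 3 above 0 in females. Their mean log2 ratio per array ran from -0.57 to 0.16 in CR males, against -0.09 to 0.68 in control males. In CR females it ran from -0.18 to 0.29, against -0.10 to 0.75 in control females. For the 13 measured monocyte markers, it ran from -0.23 to 0.56 in CR males, against -0.12 to 0.23 in control males, and the CR minus control difference was 0.09 ± 0.14. In CR females it ran from -0.25 to 0.28, against -0.10 to 0.55 in control females, a difference of -0.23 ± 0.13. Cd163 was not well above background on any array. Differences in males and females were 0.06 ± 0.05 and -0.04 ± 0.08 for T cell markers, 0.25 ± 0.12 and 0.03 ± 0.11 for NK cell markers, and 0.26 ± 0.24 and 0.15 ± 0.31 for neutrophil markers. They were 0.62 ± 0.42 and -0.23 ± 0.55 for red cell markers, and -0.07 ± 0.51 and -0.43 ± 0.55 for platelet markers. The neutrophil list includes Defa5, at -0.48 ± 0.77 in females with an SD of 2.08 in CR females. The other 8 measured genes of that list were above 0 in females. Whether Defa5 reports neutrophils here was not tested. The part of cell makeup in the differences of Rxrb, Abcg1, Rxra and the LXR targets was not tested.

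Pups of the same group differed in these genes, and the 7 tested members were compared across arrays after each group was centred on its mean. Among the 21 pairs of members, none passed a permutation test with adjustment over the pairs. The strongest was Rxrb with Nr1h2 (Pearson's r = 0.51, permutation p = 0.006, adjusted p = 0.13; Spearman's rho = 0.42, p = 0.048; 23 arrays), at 0.36 without the 2 arrays farthest in Rxrb and 0.35 with slides centred too. Rxra with Rxrb came to 0.48 (p = 0.068, adjusted p = 0.36; rho = 0.40, p = 0.11), and to 0.16 without the 2 farthest arrays, so it rests on those 2. Nr1h2 with Abca1, a receptor and its target, came to 0.46 (p = 0.028, adjusted p = 0.30; rho = 0.39, p = 0.065), at 0.29 without the 2 farthest arrays, and Nr1h3 with Abca1 to 0.39 (p = 0.11, adjusted p = 0.48; rho = 0.30, p = 0.20), at 0.14 without them. With slides centred too, r was 0.40 for Rxra with Rxrb, 0.50 for Nr1h2 with Abca1 and 0.49 for Nr1h3 with Abca1. Abcg1 had r between 0.02 and 0.26 with the other 6 members.

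Of 49 relations between members and cell type marker lists, none passed adjustment. Nr1h3 with the monocyte markers was the strongest (r = 0.59, permutation p = 0.0052, adjusted p = 0.26; rho = 0.56, p = 0.0093), at 0.67 without the 2 farthest arrays and 0.65 with slides centred. Rxrb with the monocyte markers followed (r = 0.55, p = 0.015, adjusted p = 0.27; rho = 0.54, p = 0.015), at 0.46 without the 2 farthest and 0.56 with slides centred. Rxrb with the T cell markers was at 0.41 (p = 0.016, adjusted p = 0.27; rho = 0.50, p = 0.011), at 0.31 without the 2 farthest and 0.56 with slides centred. With the B cell markers, Rxrb, Abcg1 and Rxra had r of -0.06, -0.02 and -0.11 (p = 0.81, 0.92 and 0.66; rho = -0.10, -0.05 and -0.21, p = 0.69, 0.84 and 0.40).

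**Figure D4:**
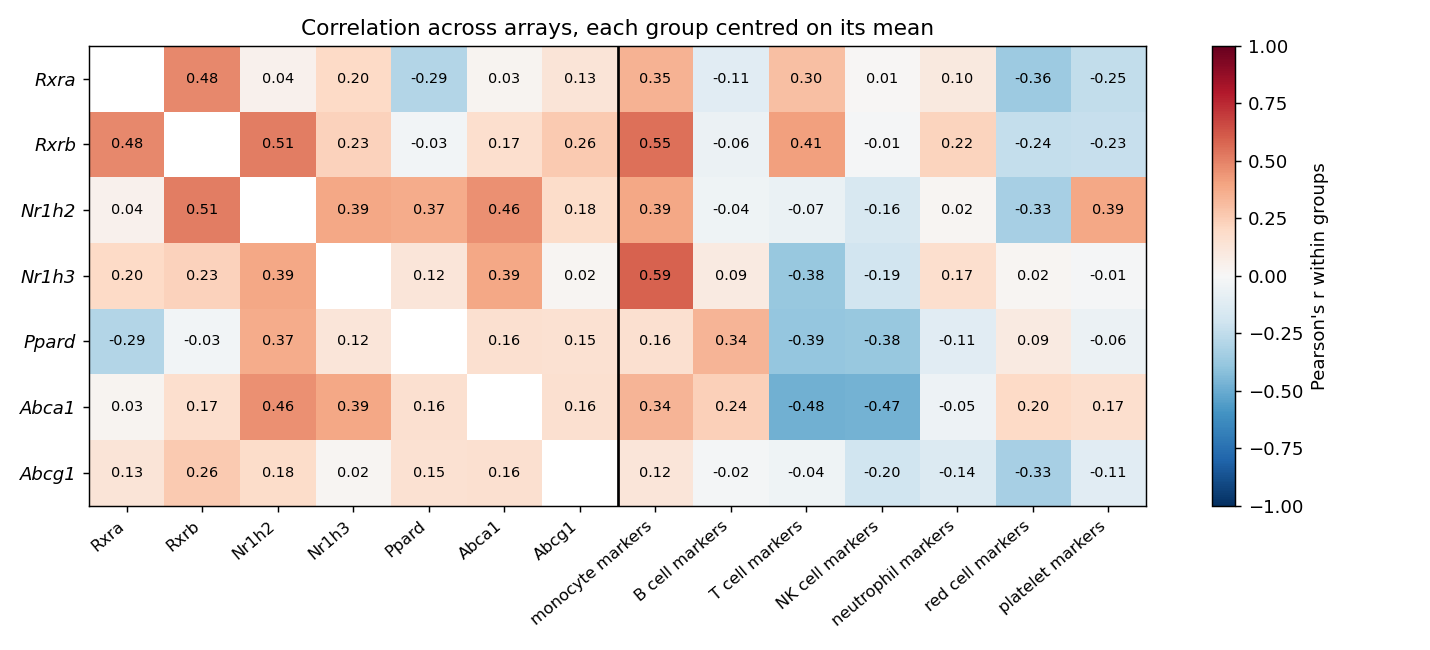
Pearson's r within groups between the 7 tested genes (left of the line) and between them and the mean of each marker list (right of the line), over 23 arrays, or 22 for Rxra. The highest value among pairs of members is 0.51, for Rxrb with Nr1h2, and the highest with a marker list is 0.59, for Nr1h3 with monocyte markers.

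The 3 named genes whose within-group pattern was most like each member's were picked by Pearson's r over the same arrays, as a description. For Rxrb they were Os9 (0.89), Ptges2 (0.89) and Fxr2 (0.88), where 1% of named genes reached 0.77. For Nr1h2 they were Hdac10 (0.92), Rbck1 (0.92) and Pomt1 (0.90), and for Nr1h3 they were S1pr5 (0.88), Ceacam4 (0.88) and Cfp (0.86), against 0.76 and 0.68 for the top 1%. For Rxra they were Slc33a1 (0.78), Smpd4 (0.73) and Rcc1l (0.72), over 22 arrays. For Ppard they were Shisa8 (0.79), Folr1 (0.79) and Col27a1 (0.77). For Abca1 they were Sts (0.80), Dusp22 (0.76) and Itpkc (0.75), and for Abcg1 they were Acad9 (0.81), Ahcyl2 (0.77) and Vps37c (0.75). No member was among the 3 of another, since members were not candidates. The arrays share the pool in Cy3, so part of any likeness can come from the arrays themselves, which was not tested.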

How the data were processed

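Per the labels and the file headers, the authors used Agilent's rat design 014879 and version 10.5.1.1 of Agilent Feature Extraction. For each spot the scanner files, as deposited, give an intensity in each channel. They also give a log10 ratio made by the scanner software and other columns of spot flags, per the file headers. A value table, also deposited, gives log2 levels with a median of 7.226 on every array. Its method and centring are unknown, and it served as an alternative only. Across probes it followed the Cy5 level (Pearson's r 0.973 to 0.998). With each probe centred over the arrays, it followed the ratio of pup to pool (r 0.71 to 0.98) more closely than Cy5 (r 0.14 to 0.92).

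Intensities were corrected with limma's normexp (offset 50), which understates differences of dim probes, and normalized by loess within arrays. Outlier spots were set to missing and spots of 1 probe averaged. Probes whose Cy5 was well above background on at least 50% of the arrays of a group were kept (23693 of 41012), with 1 probe per gene. limma 3.58.1 in R 4.3.3 was fitted to the 4 group means, with Benjamini-Hochberg adjustment over all features. Correlations used 100000 shuffles within groups. The fit was tested on simulated data. Gene names came from RefSeq (GRCr8).

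The members and lists were chosen with earlier results of these data known. Named are every member, the 3 genes most like each, and of each list the 2 genes with the smallest p in each direction plus those at an unadjusted p under 0.05. Acaca, Abca7 and single cell type markers are named outside this rule. A gene that this rule names is not reported here. Alternatives covered background, normalization, channel, filter, probe choice, slide and replicate blocks, array weights and each array left out.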

Additional observations from a re-analysis of the deposited data

Results flagged for a closer look

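In 36 groups of log2 ratios (9 genes in 4 groups), 2 had an array whose gap to its nearest neighbour was large for the spread of its group, and chance gives about 1 in 20. For Nr1h2, CR female replicate 6 had 0.62, where the next highest of the 6 CR females had 0.26. For Ppard, control male replicate 1 had 0.21, where the next highest of the 6 control males had 0.05, and that spot was not well above background.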

How the results depend on the processing

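Over 1200 recomputed differences of the tested members, 20 reversed and 0 passed the adjusted threshold, with limma's lowest adjusted p at 0.0898. The other 1180 did not reverse, and they include those where the main or the recomputed value rounds to 0. Median centring moved the median of all features to -0.19 in males, and reversed Nr1h3 in males (-0.06) and for the mean of the sexes (-0.08), Ppard in females (0.06), Abcg1 between the sexes (-0.09), and the male minus female diet difference of Nr1h2 (-0.35) and Abca1 (0.07). Scaling between arrays turned Nr1h3 to -0.02 (mean of the sexes) and the diet difference between sexes of Abcg1 to 0.04. The Cy5 channel alone turned Abca1 in males to 0.05, Ppard in females to 0.11 and the diet differences between sexes of Ppard and Abca1 to -0.02 and 0.10. Array weights turned Nr1h3 to -0.03 (mean of the sexes), slides as a block the diet difference of Abcg1 to 0.01, and leaving out the 2 arrays that stood apart, an alternative chosen after seeing the data, Rxra between the sexes to 0.01. The causes were not tested. LXR targets at an unadjusted p under 0.05 in males numbered 7 with median centring (which brought 6527 of 20768 features to that level, against 1492 with loess), 2 with the scanner software's ratio, the value table or every probe as a feature, and 0 without the 2 arrays. In females they numbered 1 with median centring, 6 with every probe as a feature and 1 without the 2 arrays, and for the mean of the sexes 3 without the 2 arrays. Members at that level numbered 1 in females with Cy5 alone (Ppard, higher in CR) and 1 for the mean of the sexes with the value table. With Cy5 alone the count for the mean of the sexes stayed at 3, but the genes changed. Ppard was higher there (0.09, limma's unadjusted p = 0.0163), and Rxra did not reach the level (-0.04, unadjusted p = 0.426). Correlated pairs of members past the adjusted threshold numbered 3 with median centring. Correlations of members with marker lists past it numbered 3 with median centring, 2 with the value table and 1 each with scaling and Cy5 alone. Array weights called 2 features for the mean of the sexes, and the filter to probes detected on all arrays called 6 between the sexes, none of them a member.

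Leaving out 1 array at a time, features called ran from 0 to 4 in males (4 without CR male replicate 2) and from 0 to 3 for the mean of the sexes. LXR targets at that level ran from 0 to 2 in males (0 without CR male replicate 1) and from 1 to 5 in females (1 without CR female replicate 5). Members at that level in females ran from 0 to 1, correlated pairs from 0 to 1 and correlations with marker lists from 0 to 1. Nr1h3 in females ran from -0.10 to 0.06, Ppard in females from -0.07 to 0.04, Ppard for the mean of the sexes from -0.01 to 0.04 and Rxra between the sexes from -0.04 to 0.01. For arrays of different groups with equal replicate numbers, deviations correlated with a median of 0.09 (-0.41 to 0.46 over 33 pairs). For unequal numbers the median was -0.03 (-0.48 to 0.58). These pairs mix pups of the same and of different dam diets, so they cannot show whether the numbers mark litters. A fit with the replicate block called 1 feature in males and no member. Few arrays and, for Rxra, Ppard and Abca1, signals near background limit the precision.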
